A study of Mus musculus with 12 samples.

Results

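The receptors of the common gamma chain family were followed in donor T cells taken from the liver after allogeneic hematopoietic cell transplantation. The members are 8 genes of the 25078 in the deposited table, chosen by name for their place in the receptor complexes: Il2ra, Il2rb, Il2rg, Il4ra, Il15ra, Il21r, Il9r and Jak3. The members and the gene lists used below were chosen with earlier results of these data known. Their counts beside the share of all genes are therefore descriptions. All 8 were found. All 8 had enough reads to be tested in CD4+ T cells, and 7 of the 8 in fits of the CD8+ libraries alone, where Il9r had between 1 and 12 reads in a library.

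RNA was sequenced from 12 libraries of donor-type T cells, sorted by the donor MHC molecule H-2Kb and TCRβ and then by CD4 or CD8, at day 6 after transplantation. The recipients were lethally irradiated wild-type BALB/c mice. Every recipient received T cell-depleted bone marrow from wild-type C57BL/6 donors together with splenic T cells of 1 of 3 C57BL/6 genotypes. The T cells were wild-type (WT), STAT3ko (Stat3 fl/fl with a CD4-Cre transgene) or STAT3ko PD-1ko (the same floxed Stat3 and CD4-Cre on a PD-1-/- background). CD4-Cre is expressed from the CD4 promoter, which is active while thymocytes carry both coreceptors, so Stat3 was deleted in the CD4+ and the CD8+ lineage. The PD-1 gene was missing from every cell of its donor from the germline on. There was no group that lacked PD-1 alone. Each of the 6 groups had 2 libraries, and each library pooled the liver lymphocytes of 3 recipients.

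Cytokine receptors of this family share one chain, the common gamma chain encoded by Il2rg, which pairs with a private chain for each cytokine. IL-2 binds CD25 (Il2ra), CD122 (Il2rb) and the gamma chain. IL-15 is held by its own alpha chain (Il15ra) and signals through the same CD122 and gamma chain pair. IL-4, IL-7, IL-9 and IL-21 each use a private chain (Il4ra, Il7r, Il9r, Il21r) with the gamma chain. The kinase JAK3 binds the tail of the gamma chain. JAK1 binds that of the chain signalling with it, which is CD122 for IL-2 and IL-15. STAT5, STAT6 or STAT3 carry the signal to the nucleus. In activated T cells this pathway is known for proliferation, survival and effector differentiation, and CD25 is itself a gene that rises with T cell activation and IL-2.

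The targeted genes followed the labels. Levels are given as CPM, library-scaled counts after TMM normalization, which compares 1 gene between libraries. Stat3 stood at 368.6 and 467 CPM in the WT CD4+ libraries, at 139.9 and 164 in STAT3ko and at 157 and 219 in STAT3ko PD-1ko. In CD8+ libraries it stood at 397 and 384 in WT, 149 and 135.5 in STAT3ko and 154 and 235 in STAT3ko PD-1ko. Pdcd1, which encodes PD-1, was between 235 and 454 CPM in the 8 libraries with an intact gene and between 26.0 and 93.6 CPM in the 4 libraries without it. Reads were summed over the whole gene, so reads from parts outside a deletion are included in these levels. The coreceptor genes followed the sort: Cd4 was at most 2.74 CPM in the CD8+ libraries, and in the CD4+ libraries Cd8a was at most 5.64 CPM and Cd8b1 between 9.43 and 19.4 CPM, both highest in STAT3ko PD-1ko replicate 2, against at least 553.7 CPM of Cd8b1 in the CD8+ libraries. Total counts lay between 21676125 and 24551477 per library, so 3 counts, the floor used here, come to between 0.119 and 0.141 CPM.

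Most members lie in pairs or alone on the mouse genome (mm10). Il2ra (chr2:11642792-11693194, plus strand) and Il15ra (chr2:11705293-11733985, plus strand) are direct neighbours. Il4ra (chr7:125552271-125579474, plus strand) and Il21r (chr7:125603429-125633570, plus strand) are direct neighbours as well. Il2rg lies on the X chromosome (chrX:101264385-101268255, minus strand), Il2rb at chr15:78480549-78495066 (minus strand), Il9r at chr11:32188997-32200279 (minus strand) and Jak3 at chr8:71676383-71690577 (plus strand). The last bases of Jak3 overlap Insl3 on the same strand (chr8:71689252-71690577), which stayed at or below 1.31 CPM in all 12 libraries.

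The 250 bases before the start site are shown for the 4 members called between genotypes in both subsets, and for Il7r as the private chain outside the list. They come from RefSeq on GRCm38.p6 and are written 5′ to 3′ on the strand of the gene, with capitals marking a motif found by search. Searched on both strands were the STAT-type site TTCNNNGAA, the same site with 4 in place of 3 bases between TTC and GAA, the AP-1-type site TGANTCA and the ETS-type site CCGGAAG, none of which contains another of the 4. The windows are Il2rg at chrX:101268256-101268505 (minus strand), Jak3 at chr8:71676133-71676382 (plus), Il21r at chr7:125603179-125603428 (plus), Il2ra at chr2:11642542-11642791 (plus) and Il7r at chr15:9529877-9530126 (minus).
Il2rg: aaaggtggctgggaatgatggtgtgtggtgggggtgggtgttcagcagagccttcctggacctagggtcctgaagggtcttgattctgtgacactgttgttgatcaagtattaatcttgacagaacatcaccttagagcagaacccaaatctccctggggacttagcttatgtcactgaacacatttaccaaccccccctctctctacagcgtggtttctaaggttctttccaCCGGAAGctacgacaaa
Jak3: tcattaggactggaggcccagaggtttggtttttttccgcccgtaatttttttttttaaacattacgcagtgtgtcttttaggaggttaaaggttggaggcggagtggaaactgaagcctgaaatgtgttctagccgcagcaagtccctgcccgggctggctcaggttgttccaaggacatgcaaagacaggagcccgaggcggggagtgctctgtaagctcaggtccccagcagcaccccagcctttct
Il21r: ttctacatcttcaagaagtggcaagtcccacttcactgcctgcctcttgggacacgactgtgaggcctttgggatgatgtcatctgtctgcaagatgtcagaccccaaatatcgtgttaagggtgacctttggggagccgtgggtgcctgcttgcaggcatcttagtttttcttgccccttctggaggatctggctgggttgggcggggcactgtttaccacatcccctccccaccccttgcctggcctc
Il2ra: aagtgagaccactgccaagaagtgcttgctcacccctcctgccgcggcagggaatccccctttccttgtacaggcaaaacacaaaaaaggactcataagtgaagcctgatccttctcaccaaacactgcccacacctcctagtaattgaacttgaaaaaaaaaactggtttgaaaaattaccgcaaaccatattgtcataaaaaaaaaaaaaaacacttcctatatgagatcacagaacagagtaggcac
Il7r: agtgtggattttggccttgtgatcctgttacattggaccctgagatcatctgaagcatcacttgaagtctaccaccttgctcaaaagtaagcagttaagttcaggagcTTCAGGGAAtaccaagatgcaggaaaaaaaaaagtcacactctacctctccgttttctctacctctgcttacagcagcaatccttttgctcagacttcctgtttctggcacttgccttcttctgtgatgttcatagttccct
The capitals in Il2rg are CCGGAAG, from 17 to 11 bases before the start site, and those in Il7r are a TTCNNNGAA match from 142 to 134 bases before it. The 7 members in the promoter table (all but Il2rb) have 8 windows, and 0 of them held a STAT-type site of either spacing, which 7.02% (3 bases) and 5.85% (4 bases) of all 32851 windows of the same length held. CCGGAAG, found in Il2rg and in 1 window of Il15ra, was in 6.91% of all windows, and TGANTCA, found in the other window of Il15ra, in 6.75%. These matches describe letters in a short window and nothing about binding.

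Per length of transcript, the chains that IL-2 and IL-15 share were by far the most abundant. Levels between genes are compared here as RPKM (CPM divided by exon length in kilobases, mean of 2 libraries). In WT CD4+ T cells the order was Il2rg at 633.3, Il2rb at 580.0, Il2ra at 63.4, Jak3 at 60.4, Il21r at 56.9, Il4ra at 19.4, Il15ra at 10.7 and Il9r at 1.09 RPKM. The range of Jak3 overlapped with that of Il2ra and with that of Il21r, and no other neighbours in this order overlapped. In WT CD8+ T cells Il2rb led with 542.3, before Il2rg with 436, Il2ra with 63.2, Il21r with 58.9, Jak3 with 58.5, Il4ra with 15.4 and Il15ra with 10.4 RPKM. Again the 3 in the middle overlapped. Il7r, the IL-7 receptor chain, fell into this order at 251 RPKM in WT CD4+ and at 74.8 RPKM in WT CD8+ T cells.

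**Figure D1:**
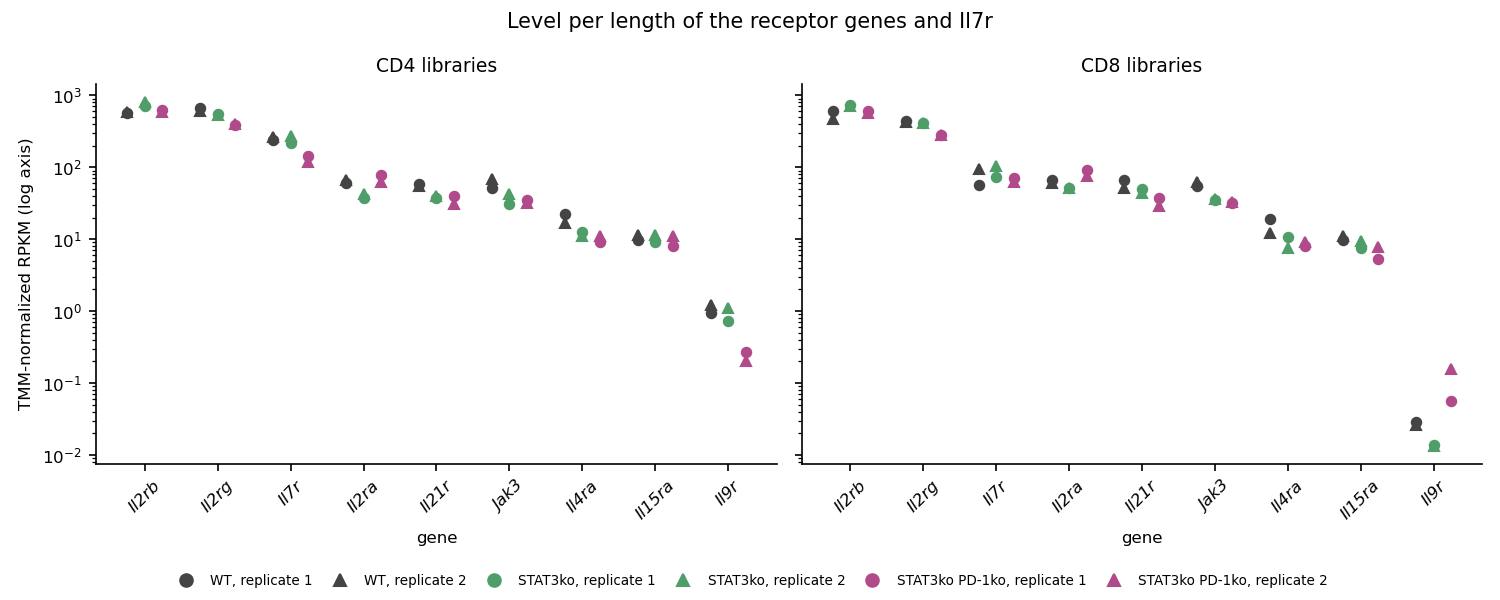
Level per transcript length (TMM-scaled RPKM, log axis) of the 8 members and Il7r in each of the 12 libraries, by group. Il2rg and Il2rb are the 2 highest in each group, and Il9r is lowest.

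The order shifted with genotype. Il2rb stood above Il2rg in 5 of the 6 groups, the exception being WT CD4+ T cells. In STAT3ko CD4+ T cells Il2rb was at 757.4 and Il2rg at 536 RPKM, and in STAT3ko PD-1ko CD4+ T cells at 598 and 391 RPKM. The pair stood in CD8+ T cells at 724 and 407 RPKM in STAT3ko and at 587 and 281 RPKM in STAT3ko PD-1ko. Il2ra, which overlapped with Jak3 in WT of both subsets and with Il21r in WT CD8+ T cells, stood clear above both in STAT3ko PD-1ko, at 70.7 RPKM against 33.2 (Jak3) and 35.3 (Il21r) in CD4+ and at 83.8 against 32.4 and 33.6 in CD8+ T cells. It also stood clear of both in STAT3ko CD8+ T cells, more narrowly, at 51.5 against 35.6 and 46.2 RPKM, and overlapped with both in STAT3ko CD4+ T cells. As a ratio of RPKM within a library, Il2ra over Il2rg was 0.0911 and 0.11 in WT CD4+, 0.0687 and 0.0817 in STAT3ko CD4+ and 0.202 and 0.159 in STAT3ko PD-1ko CD4+ T cells. The same ratio was 0.15 and 0.14, 0.128 and 0.125, and 0.324 and 0.272 in the CD8+ libraries in that order. In both subsets the 2 STAT3ko PD-1ko libraries lay above the other 4.

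**Figure D2:**
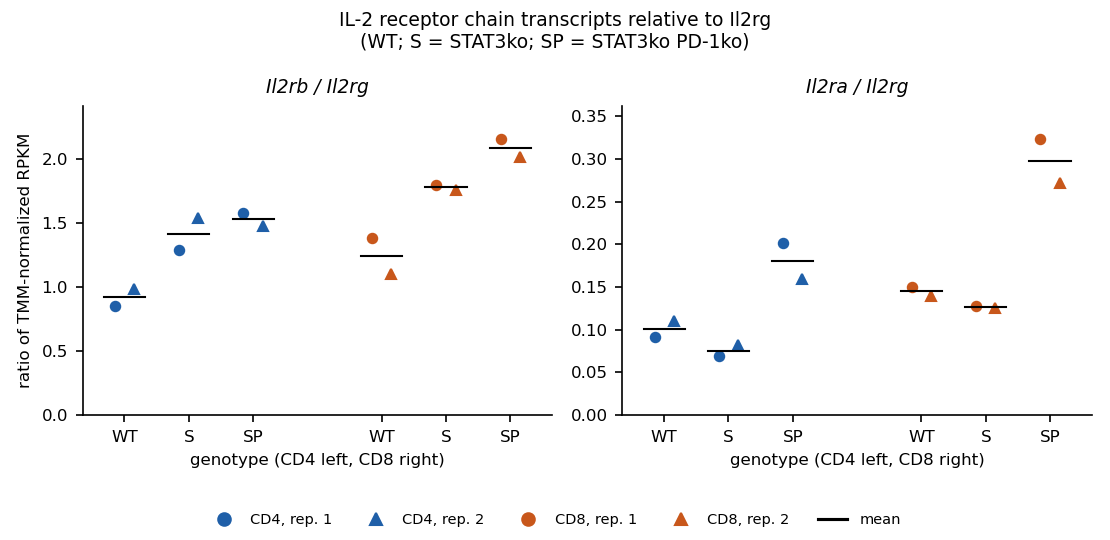
Ratio of Il2rb to Il2rg and of Il2ra to Il2rg within each library (RPKM over RPKM), with a line at the mean of a group (S, STAT3ko; SP, STAT3ko PD-1ko). Il2ra over Il2rg is highest in the STAT3ko PD-1ko libraries of both subsets (0.159 to 0.324), and Il2rb over Il2rg is lowest in WT.

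The gamma chain and its kinase were lower in STAT3ko PD-1ko T cells than in WT T cells in both subsets. Il2rg stood at 1112 and 995 CPM in WT CD4+, at 908 and 876 in STAT3ko CD4+ and at 648.5 and 653 in STAT3ko PD-1ko CD4+ T cells. The CD8+ libraries had 735 and 716 CPM of it in WT, 678 and 676 in STAT3ko and 473 and 461 in STAT3ko PD-1ko. The groups did not overlap in either subset, and the order WT, STAT3ko, STAT3ko PD-1ko held in both. Between STAT3ko PD-1ko and WT, Il2rg fell by 0.67 on the log2 scale in CD4+ (SE 0.13, edgeR adjusted p = 0.0165) and by 0.63 in CD8+ T cells (SE 0.09, adjusted p = 0.00823), which is 37.2% and 35.2% less.

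Jak3, the kinase held by the gamma chain, stood at 209.9 and 283.5 CPM in WT CD4+, at 125 and 175 in STAT3ko and at 142 and 129 in STAT3ko PD-1ko CD4+ T cells. Its levels in the CD8+ libraries were 224 and 254.5 CPM in WT, 142 and 149 in STAT3ko and 131 and 134 in STAT3ko PD-1ko. Both WT libraries were above all 4 STAT3-deficient libraries in each subset. Between STAT3ko PD-1ko and WT it fell by 0.84 on the log2 scale in CD4+ (SE 0.22, adjusted p = 0.0478) and by 0.84 in CD8+ T cells (SE 0.12, adjusted p = 0.00756). The CD4+ call for Jak3 was marginal: its adjusted p was 0.0516 when genes with under 10 counts in any library were left out, and 0.0729 and 0.0883 by limma on log2(RPKM + 1) and log2(RPKM + 0.1). With 2 libraries a group, single libraries decided several calls. The Il2rg call in CD4+ T cells was lost without WT replicate 1 (adjusted p = 0.0812) or either STAT3ko PD-1ko library (0.109 and 0.127), and the Jak3 call without the second WT library (0.203) or either STAT3ko PD-1ko library (0.174 and 0.259). Both CD8+ calls were lost on leaving out STAT3ko PD-1ko replicate 2 (Il2rg 0.0686, Jak3 0.065) and on leaving out no other library.

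**Figure D3:**
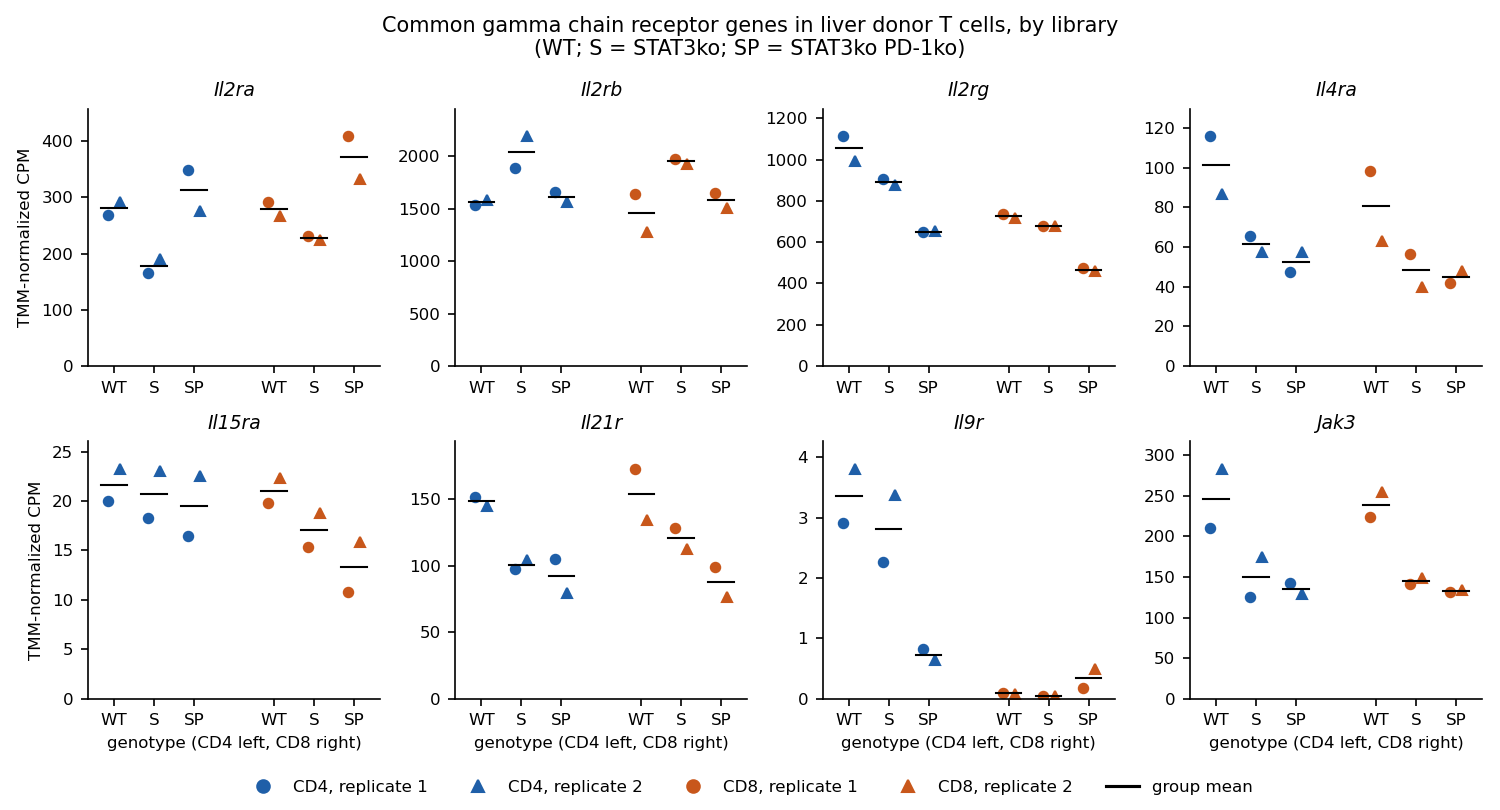
Level of each member (TMM-scaled CPM) in each of the 12 libraries, 1 panel a gene, with points for libraries and a line at the mean of the 2 libraries of a group (S, STAT3ko; SP, STAT3ko PD-1ko). Il2rg and Jak3 are lowest or among the lowest in STAT3ko PD-1ko in both subsets, Il2ra is lowest in STAT3ko, and Il9r is near 0 in CD8+ libraries.

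Across the family, STAT3ko PD-1ko CD4+ T cells had 5 of 8 members lower than WT at an adjusted p under 0.05 and 0 higher, where 12.9% of the 11959 genes tested were called and 5.65% were called lower. Among CD8+ T cells 3 of 7 members were lower and 0 higher, against 17.2% of 12002 genes called and 8.21% called lower. These backgrounds rest on single libraries too: without STAT3ko PD-1ko replicate 2, the genes called numbered 62 (CD4+) and 111 (CD8+). The median log2 change was -0.67 over the 8 members in CD4+ T cells, beside -0.01 over all genes tested. The CD8+ median was -0.65 over the 7 members tested and -0.00062 over all genes. The 2 libraries of each genotype did not overlap for 5 of 8 members in CD4+ and 6 of 7 in CD8+ T cells, which was also so for 59.2% and 59.7% of all genes. The labels number the libraries of replicate 1 in one unbroken run and those of replicate 2 in a later one, without saying whether the runs were batches. With the replicate number as a block, 6 of 7 members were called in CD8+ T cells (Il4ra, Il15ra and Il2ra in addition, Il2ra higher) beside 24.7% of all genes, and the count in CD4+ T cells was again 5 of 8, beside 26% of all genes.

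The private chains for IL-4 and IL-21 were among those that fell. Il21r, the chain that with the gamma chain passes the IL-21 signal mainly to STAT3, stood at 152 and 145 CPM in WT, 97.2 and 104 in STAT3ko and 105 and 79.2 in STAT3ko PD-1ko CD4+ T cells. CD8+ T cells had 173 and 135 CPM in WT, 128 and 113 in STAT3ko and 98.9 and 76.1 in STAT3ko PD-1ko. Every WT library was above every STAT3-deficient library of its subset. Between STAT3ko PD-1ko and WT, Il21r fell by 0.67 on the log2 scale in CD4+ (SE 0.17, adjusted p = 0.0417) and by 0.80 in CD8+ T cells (SE 0.17, adjusted p = 0.0231). The CD4+ call was lost on leaving out any 1 of the 4 libraries compared (adjusted p between 0.0791 and 0.232) and by limma (0.0514 and 0.0739). The CD8+ call was lost without WT replicate 1 (0.082) or either STAT3ko PD-1ko library (0.0533 and 0.138), and by limma on log2(RPKM + 0.1) (0.0609).

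Il4ra, the chain shared by the IL-4 and IL-13 receptors, stood at 116 and 86.5 CPM in WT CD4+, 65.8 and 57.4 in STAT3ko CD4+ and 47.4 and 57.7 in STAT3ko PD-1ko CD4+ T cells. Both WT libraries were the highest of the subset. It fell by 0.92 on the log2 scale between STAT3ko PD-1ko and WT CD4+ T cells (SE 0.19, adjusted p = 0.0236), a call lost without WT replicate 1 (0.109) or either STAT3ko PD-1ko library (0.147 and 0.101). Il4ra in CD8+ T cells stood at 98.3 and 62.8 CPM in WT, 56.6 and 39.9 in STAT3ko and 41.7 and 47.9 in STAT3ko PD-1ko. There the difference between STAT3ko PD-1ko and WT was -0.84 on the log2 scale with an adjusted p of 0.0564 (0.0347 with the replicate number as a block). The 2 WT libraries differed more from each other than the 2 STAT3ko PD-1ko libraries did, and without WT replicate 2 the adjusted p was 0.0305. Leaving out either STAT3ko library, which is not among those compared, also brought the adjusted p under the threshold, to 0.031 and 0.029.

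Il9r, the IL-9 receptor chain, was mainly read in CD4+ T cells of WT and STAT3ko. It stood at 2.91 and 3.81 CPM in WT, 2.26 and 3.38 in STAT3ko and 0.822 and 0.635 in STAT3ko PD-1ko CD4+ T cells, from 64 and 90, 48 and 76, and 19 and 16 reads. The STAT3ko PD-1ko libraries were the lowest of the 6. Between STAT3ko PD-1ko and WT it fell by 2.18 on the log2 scale (SE 0.37, adjusted p = 0.0121), a loss of 77.9%, and between STAT3ko PD-1ko and STAT3ko by 1.93 (SE 0.37, adjusted p = 0.0234). The first call was lost without WT replicate 2 (0.0523) or either STAT3ko PD-1ko library (0.0809 and 0.118), and the second without STAT3ko replicate 2 (0.0779) or either STAT3ko PD-1ko library (0.0888 and 0.193), and by limma on log2(RPKM + 1) (0.0549). Il9 itself had 0 reads in all 12 libraries, which allows a level of up to 0.141 CPM.

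The loss of PD-1 on top of STAT3 went with a higher Il2ra in both subsets. Il2ra, the CD25 chain that makes the IL-2 receptor a high-affinity one, stood at 166 and 191 CPM in STAT3ko CD4+ and at 349.5 and 277 in STAT3ko PD-1ko CD4+ T cells. The same groups of CD8+ T cells had 231 and 225 CPM and 409 and 333.5 CPM. WT stood at 269.6 and 292 CPM in CD4+ T cells, which overlapped with STAT3ko PD-1ko, and at 293 and 267 CPM in CD8+ T cells, between the other groups. Against STAT3ko, Il2ra rose by 0.83 on the log2 scale in STAT3ko PD-1ko CD4+ (SE 0.17, edgeR adjusted p = 0.0263) and by 0.71 in CD8+ T cells (SE 0.13, adjusted p = 0.0143). These are 1.78 and 1.64 times the STAT3ko level. The CD4+ call was lost without STAT3ko replicate 1 (0.0636) or either STAT3ko PD-1ko library (0.115 and 0.127). The CD8+ call was lost without STAT3ko replicate 2 (0.0804) or either STAT3ko PD-1ko library (0.0545 and 0.0632).

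In this comparison 2 of 8 members were called in CD4+ T cells, Il2ra higher and Il9r lower, where 11.1% of all genes tested were called. For CD8+ T cells 2 of 7 members were called, Il2ra higher and Il2rg lower, against 16.8% of all genes. Without STAT3ko PD-1ko replicate 2 the genes called numbered 0 in CD4+ and 2 in CD8+ T cells. Il2rg fell there by 0.52 on the log2 scale (SE 0.09, adjusted p = 0.0138), a call lost without either STAT3ko library (0.0539 and 0.0906) or STAT3ko PD-1ko replicate 2 (0.0933). In CD4+ T cells the Il2rg difference was -0.44 with an adjusted p of 0.0661 by edgeR, 0.0215 with the replicate number as a block and 0.0198 by DESeq2, where the block called 26% and DESeq2 17.5% of all genes. The block also called Il21r lower in CD8+ T cells (-0.46, adjusted p = 0.0242), beside 24.4% of all genes. Il15ra, the direct neighbour of Il2ra, was not called in either subset. This chain, which presents IL-15, stood at 18.3 and 23.1 CPM in STAT3ko and 16.4 and 22.6 in STAT3ko PD-1ko CD4+ T cells, and at 15.4 and 18.8 and at 10.8 and 15.8 in CD8+ T cells, with overlapping ranges in both subsets. In WT it stood at 20 and 23.2 CPM (CD4+) and 19.8 and 22.3 CPM (CD8+), and its difference between STAT3ko PD-1ko and WT CD8+ T cells was -0.65 with an adjusted p of 0.0899 (0.0263 with the block). The comparisons of STAT3ko PD-1ko with WT and with STAT3ko share the STAT3ko PD-1ko libraries and are not independent of each other.

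**Figure D4:**
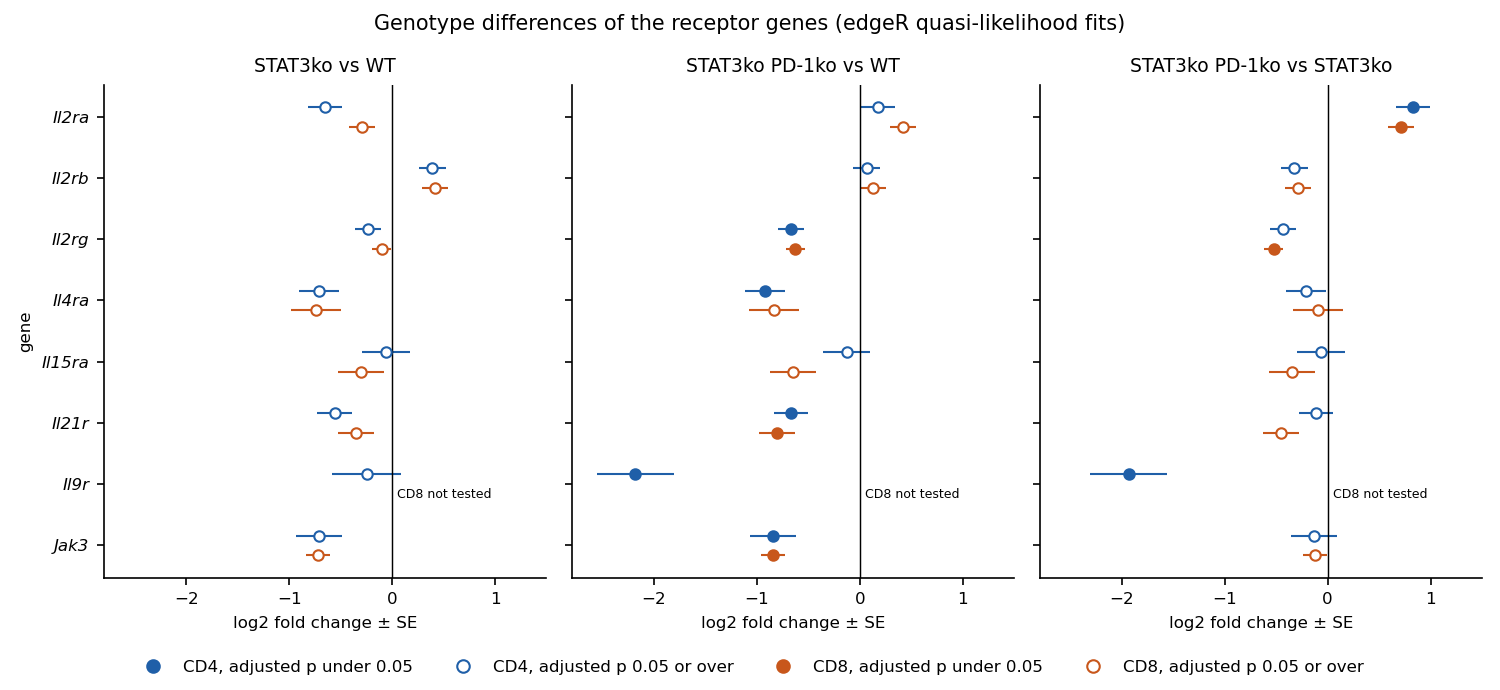
Log2 fold change of each member between genotypes (edgeR fit, bars show 1 SE), in CD4+ and CD8+ T cells, with filled points for an adjusted p under 0.05. Il2ra lies above 0 between STAT3ko PD-1ko and STAT3ko in both subsets, while Il2rg, Jak3 and Il21r lie below 0 between STAT3ko PD-1ko and WT.

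Loss of STAT3 alone gave no call among the members. In CD4+ T cells 0 of 8 and in CD8+ T cells 0 of 7 members passed an adjusted p of 0.05 by edgeR, where 0.334% (40 of 11959) and 0.0583% (7 of 12002) of all genes did. On leaving out each library, the genes called ranged from 1 to 49 in CD4+ and from 0 to 2 in CD8+ T cells. At an unadjusted p under 0.05 there were 5 of 8 and 4 of 7 members, beside 1259 and 1315 genes in all. DESeq2 called 2 members in CD4+ (Il2ra, adjusted p = 0.0316, and Il4ra, 0.0485) and 1 in CD8+ T cells (Jak3, 1.5e-05), beside 2.27% and 1.75% of all genes. Stat3 itself, whose levels did not overlap between the genotypes, had an edgeR adjusted p of 0.055 in the CD4+ fit and 0.108 in the CD8+ fit.

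The values pointed one way for most members. In CD4+ T cells the 2 STAT3ko libraries were below both WT libraries for 5 members and above them for 1, which was so in 1 or the other direction for 38.2% of all genes. The CD8+ STAT3ko libraries were below for 6 and above for 1 of 7, against 43.6% of all genes. The differences among members with an unadjusted p under 0.05 were -0.65 for Il2ra, -0.71 for Il4ra, -0.56 for Il21r, -0.71 for Jak3 and 0.39 for Il2rb on the log2 scale in CD4+ T cells, with adjusted p between 0.215 and 0.329. The CD8+ differences were -0.30 for Il2ra, -0.74 for Il4ra, -0.72 for Jak3 and 0.42 for Il2rb, with adjusted p between 0.141 and 0.453.

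Il2rb was the exception in direction. This chain, CD122, which carries the IL-2 and IL-15 signal, stood at 1539 and 1589 CPM in WT, 1892 and 2192 in STAT3ko and 1662 and 1564 in STAT3ko PD-1ko CD4+ T cells. CD8+ T cells had 1643 and 1281, 1975 and 1930, and 1653 and 1512 CPM in the same order of genotypes. The 2 STAT3ko libraries were the highest of their subset each time, and the STAT3ko PD-1ko libraries overlapped with WT in both subsets. No comparison of Il2rb between genotypes passed the test by edgeR, DESeq2 or the fit with a replicate block.

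Il2rg was lower in CD8+ than in CD4+ T cells in each genotype. CD8+ T cells had less Il2rg than CD4+ T cells of the same genotype, with differences of -0.54 on the log2 scale in WT (SE 0.10, adjusted p = 0.00592), -0.40 in STAT3ko (SE 0.10, adjusted p = 0.028) and -0.48 in STAT3ko PD-1ko (SE 0.10, adjusted p = 0.0206). The libraries did not overlap in any genotype. The CD4+ and CD8+ cells of a genotype were sorted from the same pools, and with the pool as a block the adjusted p was 0.0016, 0.00703 and 0.00484. The STAT3ko call was lost, at 0.0505, when all genes with at least 1 count were tested, and at 0.073 by limma on log2(RPKM + 0.1). Without the block, the WT call held on leaving out each library, and the call in STAT3ko and that in STAT3ko PD-1ko were lost on leaving out any 1 of the 4 libraries compared (adjusted p between 0.0764 and 0.176, and between 0.107 and 0.142).

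Il9r made the sharpest contrast between the subsets. It had 154 reads in the 2 WT CD4+ libraries and 4 in the 2 WT CD8+ libraries, a ratio of 40.1 after scaling for library size (95% counting interval 15.4 to 149). In STAT3ko there were 124 and 2 reads, a ratio of 67.5 (18.3 to 564), and in STAT3ko PD-1ko 35 and 16 reads, a ratio of 2.13 (1.15 to 4.13). The intervals cover counting error only. Il9r passed the filter of the fit over all 12 libraries through the CD4+ libraries alone, so that its calls there (adjusted p = 0.000225 in WT and 0.000273 in STAT3ko, against 0.316 in STAT3ko PD-1ko) were favoured by the filter and are given as a description. With all genes of at least 1 count tested, the adjusted p was 2.64e-07, 3.03e-07 and 0.388. Of the 16 CD8+ reads in STAT3ko PD-1ko, 12 came from replicate 2. Tested itself, the difference in the effect of PD-1 loss between CD8+ and CD4+ T cells was 4.80 on the log2 scale for Il9r (SE 0.84), with an adjusted p of 0.274, and 0.0317 when all genes with at least 1 count were tested.

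Il2rg was the 1 member of the other 7 called between the subsets in each genotype, where 10.5% (WT), 9.62% (STAT3ko) and 4.14% (STAT3ko PD-1ko) of 12334 genes were called. The pool block added Il4ra in WT (-0.35 on the log2 scale, adjusted p = 0.0398), Il4ra and Il2ra in STAT3ko (-0.37 and 0.36, adjusted p = 0.034 and 0.0254) and Il15ra in STAT3ko PD-1ko (-0.56, adjusted p = 0.00773), and called 24.3%, 24.9% and 14.4% of all genes. Il2rb, Il21r and Jak3 were called in no genotype with or without the block. No member's genotype difference was called as unequal between CD8+ and CD4+ T cells (0 of 8 for STAT3ko against WT and 0 of 8 for STAT3ko PD-1ko against STAT3ko), and the background was 0 genes of 12334 in both by edgeR. At an unadjusted p under 0.05 there were 228 and 443 genes, and DESeq2 called 5 and 19. With the pool as a block edgeR called 0 and 22 genes, and with all genes of at least 1 count 0 and 9.

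Of the other receptor genes of the family, Il7r went the way of Il2rg in CD4+ T cells. It stood at 763 and 849 CPM in WT, 707 and 882 in STAT3ko and 457 and 382 in STAT3ko PD-1ko CD4+ T cells. The STAT3ko PD-1ko libraries were below the other 4, and Il7r fell by 0.92 on the log2 scale against WT (SE 0.17, adjusted p = 0.0159) and by 0.90 against STAT3ko (SE 0.17, adjusted p = 0.0219). Both calls were lost without either STAT3ko PD-1ko library or without replicate 2 of the group compared. Il7r in CD8+ T cells stood at 179.7 and 300.3, 236 and 336, and 228.5 and 203 CPM with no call between genotypes. The WT libraries overlapped with both other genotypes there, and STAT3ko PD-1ko lay below STAT3ko. Between the subsets it was lower in CD8+ than in CD4+ T cells, with log2 differences of -1.75 in WT (SE 0.25, adjusted p = 0.00172) and -1.47 in STAT3ko (SE 0.25, adjusted p = 0.00476). In STAT3ko PD-1ko the difference was -0.96 with an adjusted p of 0.0585. Crlf2, which pairs with the IL-7 receptor chain to bind TSLP, stood at 53.6 and 49.5 CPM in WT CD8+ and at 33.3 and 34.3 in STAT3ko PD-1ko CD8+ T cells and fell by 0.60 (SE 0.13, adjusted p = 0.0215), a call lost on leaving out any 1 of those 4 libraries. Il13ra1 stayed at or below 0.33 CPM, and Il13ra2 had no reads.

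The ligands were scarce in these libraries except for Il21. Il21 stood at 65.2 and 73.9 CPM in WT, 66.2 and 45.3 in STAT3ko and 114 and 45.5 in STAT3ko PD-1ko CD4+ T cells, with overlapping groups. CD8+ T cells had much less, at 4.31 and 6.07, 4.01 and 2.58, and 13.4 and 7.84 CPM. There it rose by 1.70 on the log2 scale between STAT3ko PD-1ko and STAT3ko (SE 0.36, adjusted p = 0.0232), and the call was lost without STAT3ko replicate 2 or either STAT3ko PD-1ko library. Il21 was lower in CD8+ than in CD4+ T cells in all 3 genotypes, with differences of -3.74 in WT, -4.08 in STAT3ko and -2.91 in STAT3ko PD-1ko on the log2 scale (adjusted p = 0.000694, 0.000652 and 0.00465).

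Il2 was found in CD4+ T cells at 5.32 and 5.00 CPM in WT, 2.26 and 1.07 in STAT3ko and 2.08 and 0.993 in STAT3ko PD-1ko. Both WT libraries were above the other 4, and Il2 fell by 1.73 on the log2 scale between STAT3ko PD-1ko and WT (SE 0.45, adjusted p = 0.0452), a call lost on leaving out any 1 of those 4 libraries. Il15 was near the floor in WT, with 3 and 5 reads in the CD4+ libraries, and had 39 and 42 reads in STAT3ko and 28 and 22 in STAT3ko PD-1ko CD4+ T cells. Against WT, Il15 differed by 3.37 on the log2 scale in STAT3ko (SE 0.46, adjusted p = 0.0413). The difference was 2.56 in STAT3ko PD-1ko (SE 0.47, adjusted p = 0.016). Il15 passed the filter of the CD4+ fit through the STAT3ko and STAT3ko PD-1ko libraries alone. Both calls were therefore favoured by the filter and are given as a description. The first call was lost on leaving out any 1 of the 6 CD4+ libraries, and the second on leaving out any 1 of the 4 compared. Il4 was at or below 1.14 CPM in every library, and Il7 at or below 0.37 CPM.

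Of 16 transducers of these receptors tested, 3 were lower and 0 higher in STAT3ko PD-1ko than in WT CD4+ T cells (Stat3, Pik3cd and Jak1), with a list median of -0.18 on the log2 scale. Stat3 is the deleted gene itself, and 5.65% of all genes tested were called lower. Jak1, the kinase on the chains that signal with the gamma chain, stood at 1301 and 1269 CPM in WT, 1290 and 1287 in STAT3ko and 832 and 868 in STAT3ko PD-1ko CD4+ T cells. It fell by 0.57 (adjusted p = 0.0234). Its CD8+ levels were 1259 and 1100, 1274 and 1248, and 721 and 707 CPM, and it fell by 0.71 (adjusted p = 0.00738). The STAT3ko PD-1ko libraries were the lowest in both subsets. Pik3cd, the PI3K catalytic subunit of lymphocytes, fell by 0.83 in CD4+ (adjusted p = 0.0245) and by 0.83 in CD8+ T cells (adjusted p = 0.00604). Of the CD8+ tests 5 of 16 were lower and 0 higher than in WT (Stat3, Pik3cd, Jak1, Ptprc and Lck), with a list median of -0.19, against 8.21% of all genes called lower. Without STAT3ko PD-1ko replicate 2 the count was 1 in CD8+, and in CD4+ T cells it was 1 on leaving out WT replicate 1 and 0 on leaving out the other WT library or either STAT3ko PD-1ko library.

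Against STAT3ko, where 11.1% (CD4+) and 16.8% (CD8+) of all genes were called, Pik3r1 and Jak1 were lower in STAT3ko PD-1ko CD4+ T cells, and Pik3cd, Jak1, Pik3r1, Ptprc and Lck were lower in CD8+ T cells. STAT3ko against WT gave 0 of 16 in either subset by edgeR, with list medians of -0.06 and -0.04. The STAT5 genes, the main targets of IL-2, IL-7, IL-9 and IL-15 signals, were not called in any comparison. Stat5a stood at 95.4 and 129 CPM in WT, 76.1 and 74.2 in STAT3ko and 108 and 133 in STAT3ko PD-1ko CD4+ T cells, and Stat5b between 209 and 254 CPM in those 6 libraries. Stat5a in CD8+ T cells lay between 75.2 and 128 CPM and Stat5b between 192.5 and 209 CPM.

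Of 18 tested genes known to be induced through the gamma chain and STAT5, 6 were lower and 0 higher in STAT3ko PD-1ko than in WT CD4+ T cells (Foxp3, Pim2, Cish, Bcl2, Socs1 and Socs2), with a list median of -0.60, where 12.9% of all genes were called and 5.65% called lower. Among CD8+ T cells 6 were lower and 1 higher, with a list median of -0.51, against 17.2% of all genes called and 8.21% called lower. Cish, a feedback inhibitor of cytokine receptors, stood at 193 and 155.5 CPM in WT, 123 and 126 in STAT3ko and 73.7 and 50.6 in STAT3ko PD-1ko CD4+ T cells, and fell by 1.46 (SE 0.21, adjusted p = 0.00766). Cish in CD8+ T cells was at 84.1 and 57.5, 62.2 and 61.9, and 32.9 and 26.3 CPM and fell by 1.25 (SE 0.20, adjusted p = 0.00999). The STAT3ko PD-1ko libraries were the lowest in both subsets.

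Bcl2, which protects T cells from apoptosis, stood at 306 and 298 CPM in WT, 243 and 271 in STAT3ko and 127 and 116 in STAT3ko PD-1ko CD4+ T cells and fell by 1.29 (SE 0.14, adjusted p = 0.00414). In CD8+ T cells it fell by 1.36 (SE 0.13, adjusted p = 0.00259). Pim2, a survival kinase, fell by 1.53 in CD4+ (adjusted p = 0.00395) and by 0.95 in CD8+ T cells (adjusted p = 0.00604). Gzmb, the granzyme B gene, fell in CD8+ T cells by 1.25 (adjusted p = 0.00529) from 5213 and 4207 CPM to 2190 and 1735 CPM, while the STAT3ko libraries stood at 2217 and 1846 CPM. Tnfrsf4, which encodes OX40, was the gene that rose, by 0.92 in CD8+ T cells (SE 0.22, adjusted p = 0.029). Against STAT3ko, Cish, Bcl2, Pim2 and Foxp3 were lower in both subsets (4 of 18 each, beside 11.1% and 16.8% of all genes called), and Tnfrsf4 was higher in CD8+ T cells by 1.21 (adjusted p = 0.0149). Every call against STAT3ko among the genes outside the member list that were followed here was lost without STAT3ko PD-1ko replicate 2 (21 of 21 in CD4+ and 27 of 27 in CD8+ T cells). STAT3ko against WT gave 0 of 18 in either subset by edgeR. Without STAT3ko PD-1ko replicate 2, the genes lower than in WT numbered 0 for CD4+ and 1 for CD8+ T cells.

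**Figure D5:**
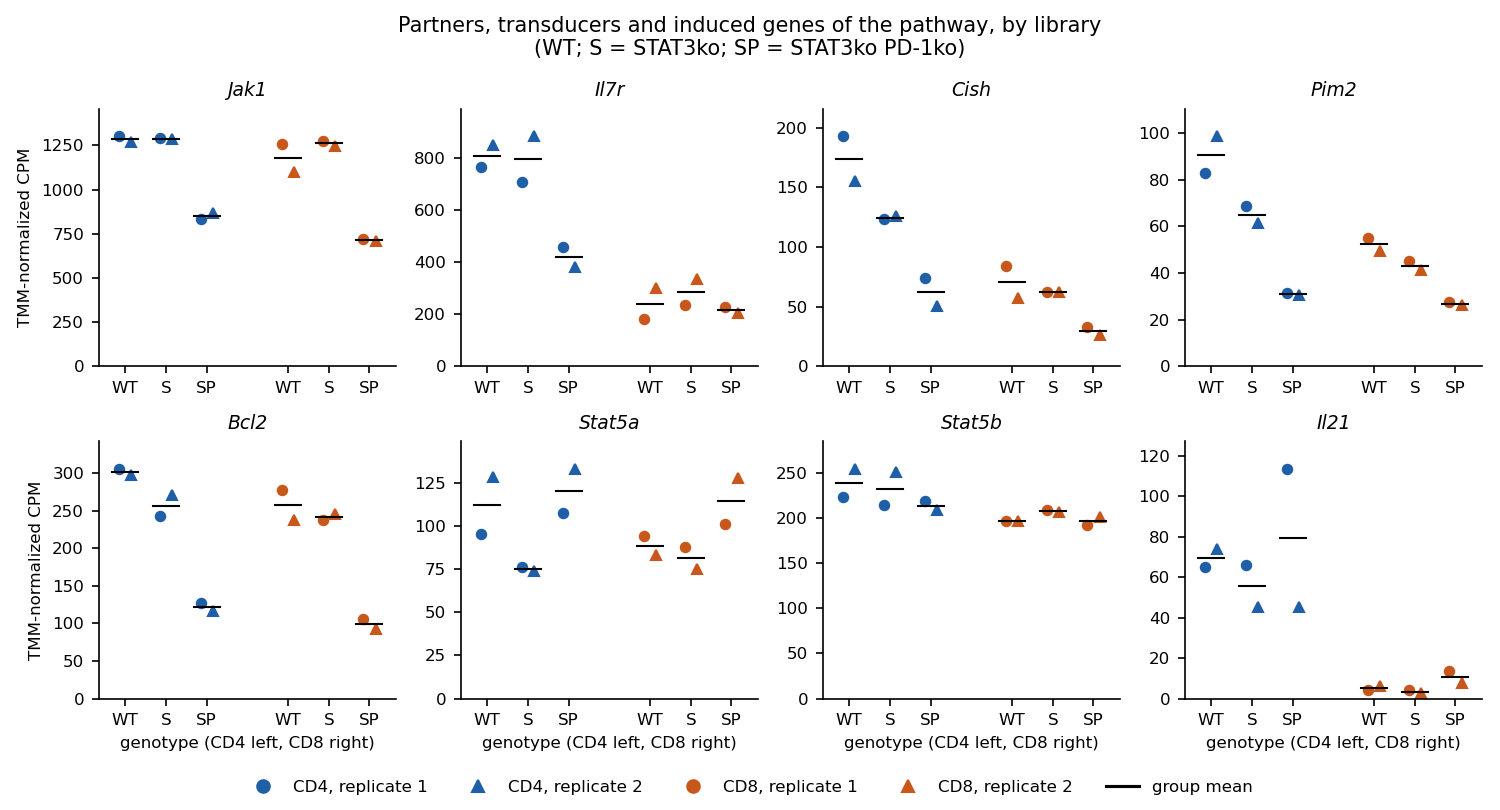
Level (TMM-scaled CPM, from 0) of Jak1, Il7r, Cish, Pim2, Bcl2, Stat5a, Stat5b and Il21 in each of the 12 libraries, 1 panel a gene; points are libraries and lines group means (S, STAT3ko; SP, STAT3ko PD-1ko). Jak1, Cish, Pim2 and Bcl2 are lowest in the STAT3ko PD-1ko libraries of each subset, and Stat5b lies between 192.5 and 254 CPM in all 12.

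Among 12 transcription factors known to act on receptor genes of this family, 3 were lower and 1 higher in STAT3ko PD-1ko than in WT CD4+ T cells, against 12.9% of all genes called. Tcf7, a factor of resting and memory T cells, fell by 2.89 on the log2 scale (SE 0.24, adjusted p = 0.00208), from 134 and 188.5 to 18.0 and 24.7 CPM. Bcl6, a transcriptional repressor that drives the follicular helper T cell fate, fell by 2.20. Gata3, the factor of type 2 helper T cells, fell by 0.58 (adjusted p = 0.00839 and 0.0391). Eomes, which drives CD122 in CD8+ T cells, rose by 1.40 (SE 0.26, adjusted p = 0.0158) from 3.45 and 2.88 to 7.79 and 8.66 CPM, and in CD8+ T cells it was between 18.7 and 32.6 CPM with no call between genotypes. In CD8+ T cells 2 factors were lower than in WT (Bcl6 and Nfatc1), against 17.2% of all genes called. The Tcf7 call held on leaving out each library. The CD4+ calls of Eomes and Gata3 were lost on leaving out any 1 of the 4 libraries compared, that of Bcl6 without either STAT3ko PD-1ko library, and the CD8+ call of Nfatc1 on leaving out any 1 of the 6 libraries. Against STAT3ko, Tcf7, Bach2 and Bcl6 were lower and Eomes higher in CD4+ (11.1% of all genes called), and Bach2 and Nfatc1 were lower in CD8+ T cells (16.8%), calls that were all lost without STAT3ko PD-1ko replicate 2. STAT3ko against WT gave 0 of 12 in both subsets by edgeR.

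Markers of cell states moved with the same comparisons. In bulk libraries, fewer cells of a type and less RNA per cell cannot be told apart. Of 8 regulatory T cell markers, 3 were lower in STAT3ko PD-1ko than in WT CD4+ T cells (Foxp3, Itgae and Ikzf2), where 12.9% of all genes were called and 5.65% called lower. Foxp3 stood at 20.96 and 30.7 CPM in WT, 16.3 and 25.1 in STAT3ko and 3.38 and 3.42 in STAT3ko PD-1ko CD4+ T cells. Among markers of resting T cells, Tcf7 and S1pr1 were lower in that comparison, and of 6 proliferation genes 5 were higher. The summed level of the proliferation list was 2948 and 2281 CPM in WT, 3399 and 3071 in STAT3ko and 4579 and 4204 CPM in STAT3ko PD-1ko CD4+ T cells. In CD8+ T cells 2 regulatory T cell markers (Itgae and Foxp3) and the resting marker S1pr1 were lower and 2 proliferation genes (Mki67 and Ccnb1) higher in STAT3ko PD-1ko than in WT. In that comparison 17.2% of all genes were called and 8.21% called lower. The CD8 genes Cd8a and Cd8b1 and the T cell receptor complex gene Cd3d were lower there too, and Cd4 was lower in the CD4+ T cells. Of the calls against WT among all genes followed outside the member list, 28 of 32 in CD4+ and 31 of 34 in CD8+ T cells were lost without STAT3ko PD-1ko replicate 2, and 23 and 19 without replicate 1. Of all genes, 11.1% (CD4+) and 16.8% (CD8+) were called against STAT3ko. In CD4+ T cells 4 regulatory T cell markers (Foxp3, Ikzf2, Itgae and Lrrc32) were lower there and Mki67 and Aurkb higher. In CD8+ T cells Foxp3, Itgae, Cd8a and Cd8b1 were lower. Their part in the receptor differences was not tested.

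Genes of other liver cells were low, and some of them moved with genotype in CD8+ T cells. The summed level of 10 hepatocyte markers was between 1.46 and 5.18 CPM, with Alb at most 0.519 CPM. That of 10 macrophage and Kupffer cell markers was between 7.25 and 38.9 CPM (most abundant Cd68, with Adgre1 at most 0.622 CPM), and that of 5 B cell markers between 1.63 and 14.7 CPM (most abundant Cd79b). The 5 natural killer cell markers summed to between 11.3 and 62.5 CPM (most abundant Klrb1c, with Ncr1 at most 0.424 CPM), the 5 neutrophil markers to at most 1.14 CPM and the 5 endothelial markers to between 110 and 198 CPM, nearly all of it Pecam1, which T cells also express.

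In all, 4 of these markers were called lower in STAT3ko PD-1ko than in WT CD8+ T cells and 0 in CD4+ T cells. The 4 were 1 of 8 macrophage and Kupffer cell, 1 of 1 B cell and 2 of 3 natural killer cell markers tested. None of the 3 hepatocyte and 3 endothelial markers tested there was called. Of all genes tested, 8.21% were called lower in CD8+ and 5.65% in CD4+ T cells. Cd68 stood at 29.1 and 28.9 CPM in WT, 27.2 and 27.8 in STAT3ko and 16.9 and 18.3 in STAT3ko PD-1ko CD8+ T cells and fell by 0.71 on the log2 scale (adjusted p = 0.0154). Cd79b, a chain of the B cell receptor, stood at 14.5 and 10.6, 12.5 and 13.7, and 5.92 and 5.10 CPM and fell by 1.18 (adjusted p = 0.0149). Klrb1c, the NK1.1 gene, fell by 1.62 (adjusted p = 0.028) from 48.9 and 56.2 to 22.9 and 11.2 CPM, and Klre1 fell by 1.79 (adjusted p = 0.0254) from 6.63 and 5.27 CPM to 2.21 and 1.23 CPM. Each of these calls was lost without at least 2 of the 4 libraries in turn. Against STAT3ko, Klre1 was lower in CD4+ (adjusted p = 0.0436), and in CD8+ T cells Cd68, Cd79b and Klre1 were lower (adjusted p = 0.0232, 0.0143 and 0.0271) and the transferrin gene Trf, a hepatocyte marker at or below 2.69 CPM, was higher (adjusted p = 0.0486). The STAT3ko PD-1ko libraries were the lowest CD8+ libraries for Cd68, Cd79b, Klrb1c and Klre1. The summed macrophage list in CD8+ T cells was 30.2 and 38.9 CPM in WT, 27.9 and 35.0 in STAT3ko and 17.9 and 19.4 in STAT3ko PD-1ko, and the summed natural killer cell list 56.4 and 62.5, 34.1 and 61.3, and 25.3 and 13.1 CPM. The other 9 macrophage markers, Kupffer cell genes among them, were highest in replicate 2 of WT and of STAT3ko. C1qa stood at 0.318 and 1.78 CPM in WT, 0.330 and 1.02 in STAT3ko and 0.260 and 0.0397 in STAT3ko PD-1ko CD4+ T cells, and at 0.178 and 1.96, 0.0863 and 1.06, and 0.133 and 0.163 CPM in CD8+ T cells. The first WT library was thus about as low as STAT3ko PD-1ko. The median differences between STAT3ko PD-1ko and WT over the 8 of 10 markers tested, -2.19 in CD4+ and -2.37 in CD8+ T cells, rest on the second WT library. Apart from Cd68, the markers tested passed the filter through replicate 2 of WT and of STAT3ko alone. These medians were therefore favoured by the filter and are given as a description. The part of these markers in the receptor differences was not tested.

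Among the 2 nearest genes on either side of the members, 5 of 21 tested were called between STAT3ko PD-1ko and WT in CD4+ and 6 of 20 in CD8+ T cells, beside 12.9% and 17.2% of all genes. Gm614 lies directly past the end of Il2rg, on the same strand. It stood at 31.5 and 41.6 CPM in WT, 19.1 and 20.9 in STAT3ko and 13.1 and 19.4 in STAT3ko PD-1ko CD4+ T cells. Against WT it fell by 1.15 on the log2 scale (SE 0.25, adjusted p = 0.0251), a call lost without WT replicate 2 or either STAT3ko PD-1ko library. Its CD8+ levels were 18.8 and 27.3, 13.7 and 14.6, and 9.06 and 15.2 CPM, with a difference from WT of -0.92 and an adjusted p of 0.0689. Beside Jak3, Unc13a fell by 2.15 against WT in CD4+ (adjusted p = 0.0306) and by 1.56 in CD8+ T cells (adjusted p = 0.0451), and B3gnt3 fell by 53.8% in CD4+ T cells (adjusted p = 0.0416). Pfkfb3 near Il2ra was lower in CD8+ T cells (adjusted p = 0.0186), and Tmprss6 beside Il2rb and Snrnp25 beside Il9r were higher there (adjusted p = 0.0216 and 0.047). The calls of Unc13a, B3gnt3 and Pfkfb3 were lost on leaving out any 1 of the 4 libraries compared, that of Tmprss6 without any of 3 libraries and that of Snrnp25 without any 1 of the 6. Nsg2, the second gene past the end of Il9r, stood at 27.8 and 24.9 CPM in WT, 18.5 and 18.7 in STAT3ko and 2.51 and 2.58 in STAT3ko PD-1ko CD4+ T cells. It fell by 3.35 on the log2 scale against WT (SE 0.20, adjusted p = 0.00108). Like Il9r it was lower in CD8+ T cells, at between 0.575 and 2.72 CPM. C1qtnf6, next to Il2rb, stood at 10.9 and 12.7 CPM in WT, 27.4 and 32.4 in STAT3ko and 24.97 and 27.3 in STAT3ko PD-1ko CD4+ T cells, and at 15.97 and 16.9, 30.7 and 31.8, and 25.6 and 29.1 CPM in CD8+ T cells. Against WT it rose by 1.35 in STAT3ko CD4+ (adjusted p = 0.0413) and by 1.17 in STAT3ko PD-1ko CD4+ T cells (adjusted p = 0.0101), and the CD8+ rise in STAT3ko PD-1ko was 0.74 (adjusted p = 0.016), each call lost without at least 3 libraries in turn. Rbm17 and Fbh1 on either side of the Il2ra and Il15ra pair, Nsmce1 and Gtf3c1 around the Il4ra and Il21r pair, and Med12, the gene next to Il2rg on the other side, were not called between genotypes in either subset.

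Over the 12 libraries, the genes whose pattern was most like each member were sought among 8599 genes by Pearson correlation of log2 CPM. The libraries share genotype and subset, so high values are common. For Il2rg they were Cyth1 (r = 0.990), Slc9a9 (0.987) and Rasgrp1 (0.984). Cyth1 stood at 229 and 228 CPM in WT, 195 and 195 in STAT3ko and 129 and 120.3 in STAT3ko PD-1ko CD4+ T cells, in the order of Il2rg. For Jak3 they were Hdac4 (0.953), Sh3bp1 (0.939) and Klf7 (0.936), for Il21r Uap1l1 (0.955), Rhoh (0.923) and Pdlim7 (0.919), and for Il4ra Avl9 (0.919), Tollip (0.916) and Nr1d2 (0.916). For Il2ra they were Nop2 (0.933), Nom1 (0.930) and Cd3eap (0.928), and Nop2, like Il2ra, had its 2 lowest libraries of each subset in STAT3ko. For Il2rb they were Ap2b1 (0.922), Daglb (0.914) and Agpat1 (0.903), for Il15ra Plekhb2 (0.962), Arhgef4 (0.945) and Ankrd50 (0.925), and for Il9r Nfkb1 (0.961), Ajuba (0.957) and Hectd2 (0.948).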

How the data were processed

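RNA-seq of sorted donor T cells from liver was analysed in 12 libraries (6 groups of 2, each library a pool from 3 recipients, so p-values measure the spread between pools). According to the study's methods, the authors aligned reads to the mouse genome (mm10) with STAR and counted them per RefSeq gene with HTSeq. They deposited read counts and RPKM for 25078 genes. The strand setting of the counting and further parameters are not given in the sources used here. The growth and library protocols in the labels describe another cell system and were not used.

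The deposited counts were used for every test and level. CPM and RPKM levels were computed from the counts with TMM scaling and the deposited exon lengths, and the authors' deposited RPKM served only for the limma alternatives. A filterByExpr step (10 counts, 15 in total) chose the genes tested by edgeR 4.0.16 quasi-likelihood fits (R 4.3.3) with Benjamini-Hochberg adjustment over all genes tested and a threshold of 0.05. A gene past it is said to be called, to rise or to fall. The 6 libraries of a subset shared a fit for genotypes (3 residual degrees of freedom), and all 12 shared one for CD8+ against CD4+ T cells and for interactions (6). An exact permutation test of 2 against 2 cannot go below p = 0.333 and was not used. SE is the log2 fold change over the root of F. Log2 differences are printed for members with an unadjusted p under 0.05, and others are given by their levels. Alternatives were DESeq2 1.42.0, its size factors in edgeR, other count filters, only the libraries compared, replicate blocks, leaving out each library, and limma 3.58.1 on log2(RPKM + 1) and log2(RPKM + 0.1). Scripts were tested on simulated counts. Figures were drawn with Python 3.11.15 and matplotlib 3.10.9.

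According to the study, CD4+ and CD8+ T cells of a genotype came from the same livers. Same-numbered libraries deviated together (correlations of deviations from the group means 0.588 in WT, 0.583 in STAT3ko and 0.646 in STAT3ko PD-1ko), so the pool was used as a block for CD8+ against CD4+ T cells. Replicate libraries differed by far more than counting noise. Named are all members, the genes of the lists described, the 2 nearest genes on either side of a member, and the 3 genes most correlated with each member among those whose mean reached 3 on the log2 CPM scale. The members and lists were chosen with earlier results of these data known. Some genes of the lists are not reported here.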

Additional observations from a re-analysis of the deposited data

How the results depend on the processing

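Members called moved with the setting as follows. DESeq2 called 2 members for STAT3ko against WT in CD4+ (0 by edgeR), 1 in CD8+ T cells (0 by edgeR) and 6 for STAT3ko PD-1ko against WT in CD8+ T cells (3 by edgeR, joined by Il2ra, Il4ra and Il15ra at adjusted p of 0.0293, 0.00831 and 0.0432), where it called 22.7% of all genes. With all genes of at least 1 count, 1 member was called for STAT3ko against WT in CD8+ T cells (Jak3, 0.0349), 1 for CD8+ against CD4+ in STAT3ko and 1 for the interaction of PD-1 loss with subset (Il9r). Leaving out genes with under 10 counts in a library, 1 was called for CD8+ against CD4+ in WT and 1 in STAT3ko, Il9r no longer being tested. For STAT3ko PD-1ko against WT, 4 members were called in CD8+ T cells with all genes and with only the 4 libraries compared, and 4 in CD4+ T cells with the 10-count filter. DESeq2 called 3 for STAT3ko PD-1ko against STAT3ko in CD4+ T cells. The pool block gave 3 members in WT, 4 in STAT3ko and 2 in STAT3ko PD-1ko for CD8+ against CD4+ T cells. Libraries of different genotypes share a replicate number and a run of consecutive label numbers (correlations of deviations 0.63, 0.303 and 0.199 in CD4+, 0.651, 0.16 and 0.0601 in CD8+ T cells). For its T cell receptor sequencing, the study names 2 batches, each from 3 mice. It does not say whether the replicate number of the RNA libraries marks these batches. A replicate block on that number gave 6 members for STAT3ko PD-1ko against WT in CD8+ T cells and 3 for STAT3ko PD-1ko against STAT3ko in each subset, in CD4+ T cells with Il2rg (0.0215).

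On leaving out each library, the members called ranged from 0 to 0 for STAT3ko against WT, from 0 to 5 (CD4+) and 0 to 4 (CD8+) for STAT3ko PD-1ko against WT, and from 0 to 2 for STAT3ko PD-1ko against STAT3ko in both subsets. For CD8+ against CD4+ they ranged from 2 to 2 in WT, 1 to 2 in STAT3ko and 0 to 1 in STAT3ko PD-1ko, and for both interactions from 0 to 0. No reported member difference changed sign under any setting. Limma on log2(RPKM + 0.1) and log2(RPKM + 1) lost 4 and 3 of the 17 member calls by edgeR (Il21r and Jak3 in STAT3ko PD-1ko against WT CD4+ T cells under both). Of all genes, edgeR called 40 for STAT3ko against WT in CD4+ T cells against 271 by DESeq2, 165 with all genes, 303 with the block and 1 with only the 4 libraries compared. In CD8+ T cells it called 7, against 210 by DESeq2, 66 with all genes, 1 with the stricter filter of 10 counts and 0 with 4 libraries. The replicate block gave 3104 against 1538 and 3105 against 1324 genes for STAT3ko PD-1ko against WT and STAT3ko in CD4+ T cells, where DESeq2 called 2098 in the second. The pool block gave 2991, 3077 and 1774 against 1294, 1187 and 511 genes for CD8+ against CD4+ T cells in WT, STAT3ko and STAT3ko PD-1ko. On leaving out each library, the genes called for STAT3ko PD-1ko ranged from 62 to 1947 (CD4+) and 111 to 1908 (CD8+) against WT and from 0 to 1212 and 2 to 1878 against STAT3ko, each lowest without STAT3ko PD-1ko replicate 2, and those for CD8+ against CD4+ from 611 to 1320 in WT, 428 to 1135 in STAT3ko and 163 to 505 in STAT3ko PD-1ko. What made the counts differ was not tested, and 2 libraries a group limit every call.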
